A study of Homo sapiens with 24 samples.

Results

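The m6A peaks on the transcripts of FOXA1, FOXA2 and FOXA3 were described in human pluripotent stem cells and their pancreatic derivatives. A peak was taken as a member when the gene field of the deposited list held the Ensembl identifier of 1 of these 3 genes. There were 40 such peaks among 228472 peaks in 6 lists, 14 on FOXA1, 11 on FOXA2 and 15 on FOXA3, and no member peak carried the identifier of another gene. In m6A-seq, RNA fragments are immunoprecipitated (IP) with an antibody against N6-methyladenosine and sequenced beside the unselected fragments (input), and a peak is a stretch where IP exceeds input.

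All cells came from the established human embryonic stem cell line MEL1, in the study's methods MEL1 INS-GFP/W, which carries a GFP reporter at the insulin gene, differentiated along 1 protocol. Batch 1 comprised undifferentiated hPSC, definitive endoderm (DE, reached by day 3 in activin A, with CHIR99021 on day 1), pancreatic progenitors (PP, reached by day 14 after KGF, vitamin C, LDN-193189, GDC-0449, retinoic acid and EGF) and human islet-like organoids (hILO, aggregates kept from day 15 to day 22 in a medium with zinc sulfate, heparin, 616452, T3, LDN-193189, compound E and vitamin C, then, by the methods of the study, in a last medium that left out LDN-193189 and compound E and added N-acetyl cysteine and trolox). In these cells mRNA was selected before the IP. Batch 2 comprised PP of wild-type cells (WT PP) and PP of cells whose m6A demethylase gene ALKBH5 had been knocked out with CRISPR-Cpf1 (A5-KO PP). There total RNA was used, with another antibody and another library kit and with rRNA removed from the input. Each population had 2 IP and 2 input libraries, but each list gives 1 value per peak over these libraries. No spread between libraries can therefore be computed, no test across conditions was made, and the 95% intervals given here cover counting error only. The labels read A5_KO and do not state which of the study's knockout lines, A5-KO or A5-KO2, was used. The number of lines behind the 2 libraries of each kind is therefore not known. ALKBH5 itself carried 4 peaks with 289 input reads in WT PP and 5 peaks with 1 input read in A5-KO PP. A knockout at the DNA level need not remove the transcript, and IP reads were counted in both lists.

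The FOXA proteins are forkhead transcription factors, known as pioneer factors because they can bind their sites in closed chromatin. FOXA1 and FOXA2 are known to open the enhancers that endoderm uses for the foregut, liver and pancreas programs, and FOXA2 is a standard marker of definitive endoderm. FOXA3 is best known for its role in liver and gut. m6A is written on mRNA by the METTL3 and METTL14 complex, mostly in the sequence context DRACH around stop codons and in long exons, and it is removed by ALKBH5 and FTO. It is read by proteins that affect the decay, splicing and translation of the message.

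The lists held 29083 to 55219 peaks with 6987612 to 28463998 input reads inside peaks. The labels were checked against marker genes by counting those with a peak. With 52.2% to 69.7% of all coding genes carrying a peak in each list, such counts are a weak check. Of the markers of each stage, 4 of 5 hPSC markers had a peak in hPSC, 5 of 5 DE markers in DE, 4 of 5 PP markers in PP, 5 of 5 PP markers in each batch 2 list, and 5 of 5 hILO markers in hILO. A peak on a marker did not set the stages apart in every case, since 4 of 5 hPSC markers also had a peak in DE, 4 of 5 PP markers in hILO and 3 of 5 DE markers in each batch 2 list. The peaks on POU5F1 (OCT4), a core pluripotency factor named after its values were seen, held 11 input reads in hPSC and 727 in DE. Markers of hepatic, gut and mesenchymal cells were also present in the organoids, where 7 of 7 carried a peak and their peaks held 2127 of every 1000000 input reads in peaks, against 85.4 (PP), 213 (WT PP) and 138 (A5-KO PP). The share that such cells took in the FOXA signal was not tested.

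Each FOXA gene has a long last exon, and 35 of the 40 peaks lay wholly inside it. FOXA1 (ENSG00000129514) spans chr14:37589552-37596059 on the minus strand of GRCh38, and its longest coding isoform has 2 exons, of which the last, 3160 nt long, holds 1347 of the coding bases and the whole 3′UTR. FOXA2 (ENSG00000125798) spans chr20:22580998-22585455, also on the minus strand, with a last exon of 2157 nt. FOXA3 (ENSG00000170608) spans chr19:45863989-45873797 on the plus strand, with a last exon of 1723 nt. The encoded proteins have 472, 463 and 350 residues. On these isoforms 14 peaks ran across the stop codon from the coding sequence into the 3′UTR, 16 were within the coding sequence and 5 within the 3′UTR. Only 1 peak reached a 5′UTR, and 4 peaks on FOXA1 in batch 2 had bases outside the isoform.

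**Figure D1:**
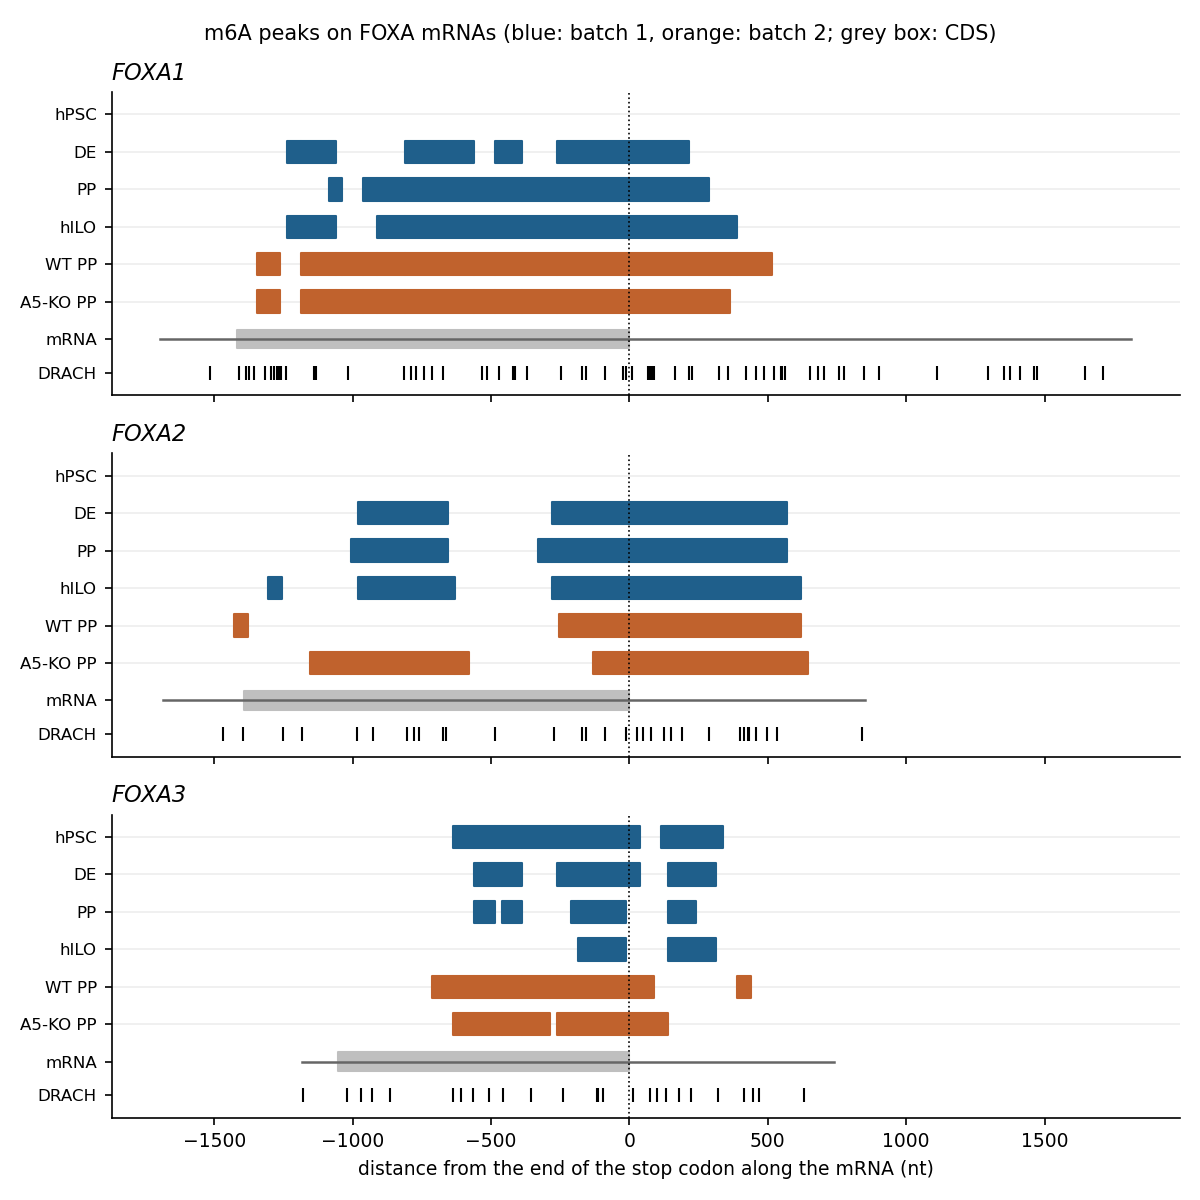
Position of the m6A peaks on the mRNA of FOXA1, FOXA2 and FOXA3 (1 panel each), with the distance from the end of the stop codon in nt on the x axis and the 6 lists as rows (blue, batch 1; orange, batch 2). The grey box is the coding sequence and the ticks are DRACH sites; bases outside the isoform are not drawn. A peak over or beside the stop codon is seen in every list that has peaks on the gene, and the FOXA1 and FOXA2 rows of hPSC are empty.

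The stretches below are coding parts of regions that every list with peaks on the gene covered, and they are printed because the comparisons turn on them. They were read from GRCh38 and are written 5′ to 3′ on the transcript strand, with T for U. Capitals mark DRACH, that is A, G or T, then A or G, then AC, then A, C or T.

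FOXA1, codons 386 to 472 with the stop codon, chr14:37591365-37591626: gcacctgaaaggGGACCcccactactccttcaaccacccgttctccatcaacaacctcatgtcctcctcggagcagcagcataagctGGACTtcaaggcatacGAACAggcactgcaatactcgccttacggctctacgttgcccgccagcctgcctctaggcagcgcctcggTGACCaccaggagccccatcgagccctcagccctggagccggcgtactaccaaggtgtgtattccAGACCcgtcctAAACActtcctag
FOXA2, codons 421 to 463 with the stop codon, chr20:22581850-22581979: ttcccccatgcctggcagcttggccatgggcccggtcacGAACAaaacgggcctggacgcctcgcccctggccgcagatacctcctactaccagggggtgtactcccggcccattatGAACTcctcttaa
FOXA3, codons 289 to 347, chr19:45872872-45873046: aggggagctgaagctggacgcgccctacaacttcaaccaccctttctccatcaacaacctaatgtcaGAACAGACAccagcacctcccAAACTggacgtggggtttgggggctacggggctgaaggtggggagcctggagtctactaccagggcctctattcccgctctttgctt

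The FOXA1 stretch holds 6 DRACH sites, the FOXA2 stretch 2 and the FOXA3 stretch 3, of which 2 overlap by their end bases. Among all peaks of 25 to 262 nt, DRACH was present in 85.4% to 90.0% of those in each list, so its presence does not set these stretches apart. The FOXA1 stretch that ends at the stop codon and the FOXA3 stretch share a run of 12 codons that encode the same residues (codons 396 to 407 of FOXA1 and 300 to 311 of FOXA3), and its FOXA2 counterpart lies at codons 378 to 389. These codons were covered in full by FOXA1 peaks in 5 lists and by FOXA3 peaks in 6. The FOXA2 peaks covered 100% of them in DE, PP and hILO, 83.3% for WT PP and 0% for A5-KO PP. The longest conserved block is the forkhead DNA-binding domain region, in which FOXA1 codons 164 to 271 and FOXA2 codons 159 to 266 encode 93.5% identical residues. FOXA1 and FOXA2 also share a block of 20 codons at the start of the protein (codons 1 to 20 of FOXA1, 85.0% identical), under no peak in any list. The longest run of bases shared by the mRNAs of FOXA1 and FOXA2 was 48 nt, and FOXA3 shared at most 29 nt with either. In batch 1 the RNA was cut to about 100 nt, longer than these runs.

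In the 3′UTR under the peaks, each gene has a DRACH site with the core GGAC, shown here with the bases around it. FOXA2 and FOXA3 also have DRACH sites without GGAC nearer the stop codon, the first of them 27 and 13 nt after it. The FOXA1 and FOXA2 sites were under a peak in all 5 lists with peaks on the gene, and the FOXA3 site in the 4 lists of batch 1.

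FOXA1, 9 nt after the stop codon, chr14:37591346-37591366: agctcccgGGACTggggggtt
FOXA2, 49 nt after the stop codon, chr20:22581791-22581811: cggatcgaGGACAagtgagag
FOXA3, 222 nt after the stop codon, chr19:45873270-45873290: tactgtgaGGACTgctacatt

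In hPSC, FOXA3 had 2 peaks while FOXA1 and FOXA2 had none. All 3 genes had peaks from DE onward, with 9, 8 and 7 member peaks in DE, PP and hILO, and in batch 2 with 8 (WT PP) and 6 (A5-KO PP). As background, 60.2%, 57.0%, 52.2% and 57.7% of coding genes carried a peak at the 4 stages in order, and 62.8% and 69.7% did so for WT PP and A5-KO PP, so a peak on a given gene was common in each list. The absence of a peak in hPSC does not show that FOXA1 or FOXA2 RNA was absent, since the lists hold no reads outside peaks.

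FOXA2 had the same pair of peaks in DE, PP and hILO. The larger ran from the end of the coding sequence into the 3′UTR (chr20:22581280-22582129 in DE) and had a log2 enrichment of IP over input of 2.21 in DE (95% interval 2.15 to 2.27, 2887 input reads), 1.93 in PP (1.86 to 1.99, 2364 input reads) and 2.17 in hILO (2.12 to 2.22, 4429 input reads). It stood at the 78.9th, 65.6th and 84.9th percentile of its list. The other lay within the coding sequence (chr20:22582505-22582829 in DE) over the forkhead region, with log2 enrichments of 1.37, 1.29 and 1.26 in the same order, each below the stop codon peak of the same list by more than the counting intervals on the authors' scale. With the log2 ratio of the deposited IP to input counts, shifted by 1 offset per list (the count ratio), the PP values were 2.38 at the stop codon and 2.31 in the coding peak, with overlapping counting intervals. A further peak of 50 nt at the start of the last exon (chr20:22583105-22583154) was listed in hILO with a log2 enrichment of 0.67 on 593 input reads. Across DE, PP, hILO and both batch 2 lists, 700 nt at chr20:22581280-22581979 were covered in all 5, namely the last 130 coding bases with the stop codon and 570 nt of the 3′UTR.

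FOXA1 had 4 separate peaks in DE and 2 in PP and hILO, where 1 long peak took in 3 of the DE peaks. The DE peak over the stop codon (chr14:37591152-37591626) had a log2 enrichment of 2.32 (2.11 to 2.54) on 219 input reads. The long peaks that contain it had 2.03 in PP (chr14:37591077-37592326, 566 input reads) and 2.25 in hILO (chr14:37590977-37592276, 3665 input reads). Upstream in the coding sequence, the DE and hILO lists shared a peak with the same ends (chr14:37592427-37592601), with log2 enrichments of 1.57 (1.16 to 1.97) on 61 input reads and 0.73 (0.60 to 0.85) on 730. PP had a 50 nt peak there (chr14:37592402-37592451) with 1.21 on 41 input reads. On the authors' scale, then, the FOXA1 peak that takes in the stop codon was more enriched than this peak upstream in the 3 lists. In PP and hILO that was the long peak, mostly in the coding sequence. There 962 of 1250 nt and 912 of 1300 nt were coding or stop codon bases. With the count ratio and 1 offset per list the PP values were 2.72 in the long peak and 3.02 upstream, with overlapping counting intervals.

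FOXA3 was the member with peaks in all 6 lists. In hPSC 1 peak covered 675 nt up to and past the stop codon (chr19:45872422-45873096, log2 enrichment 1.60, 209 input reads) and the other lay in the 3′UTR (chr19:45873172-45873396, 1.53, 284 input reads). DE had 3 peaks with log2 enrichments of 1.13, 1.44 and 1.79, PP had 4 with 0.87, 1.17, 1.03 and 1.30, and hILO had 2 with 1.28 and 1.89, in the order of the transcript. In DE, PP and hILO the 3′UTR peak had the highest value of the FOXA3 peaks. In hILO its interval (1.74 to 2.03) lay above that of the coding peak (1.09 to 1.47), whereas in PP it (1.19 to 1.40) lay within that of the coding peak at 1.17 (0.85 to 1.49). With the count ratio and 1 offset per list the PP values were 1.45, 2.09, 1.77 and 1.57, with a coding peak highest. The covered part of the isoform was 46.8%, 33.8%, 23.4% and 18.2% from hPSC to hILO. Over the same lists it went from 28.5% in DE to 37.0% in PP and 42.0% in hILO for FOXA1, and from 46.3% to 49.3% and 51.2% for FOXA2. The coding stretch of 175 nt printed above was the only part of FOXA3 under a peak in all 6 lists.

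The lists were normalized separately, and the list medians of log2 enrichment were 1.74, 1.72, 1.64 and 1.53 for the stages from hPSC to hILO, 3.65 for WT PP and 4.31 for A5-KO PP. Member peaks above these medians numbered 0 of 2 for hPSC, 5 of 9 for DE, 2 of 8 for PP and 3 of 7 for hILO, then 4 of 8 for WT PP and 4 of 6 for A5-KO PP. In PP the 2 above the median were the stop codon peaks of FOXA1 and FOXA2.

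The amount of input in the peaks followed another order. Per kb of peak and per 1000000 input reads in the peaks of the list, FOXA1 had 29.8 in DE, 66.8 in PP and 105 in hILO. FOXA2 had 261 in DE, 364 in PP and 169 in hILO. FOXA3 had 68.7, 137, 408 and 80.7 at the 4 stages in order. FOXA1 was thus lowest in DE and highest in hILO, whereas FOXA2 and FOXA3 were highest in PP. Within each gene the Poisson intervals of these stage values did not overlap. FOXA2 exceeded FOXA1 in DE, PP and hILO. The values describe reads inside peaks, whose ends move between lists, and in such bulk samples fewer cells of a type and less RNA per cell cannot be told apart.

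On the same scale, WT PP and A5-KO PP had 305 and 278 for FOXA1, 515 and 231 for FOXA2, and 2.90 and 15.9 for FOXA3. These values are per kb of exonic peak length, and per kb of genomic span both lists had 164 for FOXA1. Batch 2 gave a different picture of where the reads of FOXA1 and FOXA2 lay. In WT PP 99.9% of the FOXA1 input reads (12179 of 12197) were in 2 peaks. The first, chr14:37592627-37593939, begins upstream of the last exon, ends within it and spans 1313 nt of which 150 are exonic in some isoform and 85 are coding bases of the longest, and it held 6951 input and 73391 IP reads with a log2 enrichment of 6.03. The second, chr14:37595252-37596045, had no base on the longest isoform and held 5228 input and 11977 IP reads with 2.73. By contrast the peak over the FOXA1 stop codon, 1700 nt long, held 18 input and 45 IP reads. A5-KO PP showed the same split, with 5919 of 5923 input reads in chr14:37592627-37593914 and 4 in the stop codon peak. For FOXA2, 8797 of 9066 input reads in WT PP were in a 50 nt peak at the start codon (chr20:22584267-22584316), and in A5-KO PP 3968 of 3968 were in the coding sequence peak.

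Input was spread more unevenly over the peaks of a gene in the batch 2 lists as a whole. The ratio of the highest to the lowest input density (1 read added to each peak) among the peaks of a coding gene had a median of 6.69 to 9.21 over the batch 1 lists, 51.0 for WT PP and 60.5 for A5-KO PP. FOXA1 had ratios of 4635 and 14682 in these 2 lists, at the 95.6th and 98.9th percentile, while in DE, PP and hILO it had 5.79, 1.85 and 1.48. Densities were taken per exonic length. The highest for FOXA1 were 46340 and 47352 input reads per kb, whereas per kb of genomic span the same peaks had 5294 and 4596. In WT PP the lowest FOXA1 density was that of a peak with 0 input reads. FOXA3 stayed low, with 6.40 and 7.66 in batch 2. Since batch, antibody, kit and RNA selection changed together, they cannot be told apart as sources of this difference.

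Peak locations were then compared between successive stages. A peak was counted as shared when over 50% of its exonic length was covered by peaks of the stage before. In DE 3 of 9 member peaks were shared with hPSC, all of FOXA3, where 64.7% of all DE peaks were shared. In PP 7 of 8 were shared with DE, against 57.0% of all PP peaks, and the exception was the short FOXA1 peak upstream in the coding sequence. In hILO 5 of 7 were shared with PP, against 45.6% of all. PP of batch 1 and WT PP, the same stage in 2 batches, shared 6 of the 8 PP peaks, against 57.9% of all PP peaks.

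No shared member peak changed its log2 enrichment by 1 or more between successive stages, and the 6, 1 and 2 member peaks of the later stage that were not shared could not be paired. From hPSC to DE the 3 shared FOXA3 peaks changed by −0.47, −0.16 and 0.26. Where both peaks of a pair had 50 or more input reads, 2.23% of all pairs were higher and 3.84% lower by 1 or more. From DE to PP the 7 differences ranged from −0.50 to 0.04 with a median of −0.28, and 4 intervals did not include 0. The FOXA2 stop codon peak differed by −0.28 (−0.37 to −0.20) and the FOXA2 coding peak by −0.08 (−0.23 to 0.07). The background was 4.28% higher and 6.30% lower by 1 or more. From PP to hILO the 5 differences ranged from −0.03 to 0.59 with a median of 0.24, where 3.09% of all were higher and 9.41% lower by 1 or more. The FOXA1 and FOXA2 stop codon peaks were higher in hILO by 0.22 (0.08 to 0.35) and 0.24 (0.16 to 0.32), and the FOXA3 3′UTR peak by 0.59 (0.41 to 0.77). Medians over all shared peaks were −0.11, −0.12 and −0.12 for the 3 steps.

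The signs of all 3 medians depend on the scaling. With the log2 ratio of the deposited counts and 1 offset per list in place of the authors' value, the median of the member differences was 0.097 from hPSC to DE, 0.15 from DE to PP and −0.22 from PP to hILO. Of the 15 stage differences of member peaks 9 thus turned in sign and 6 kept it. The 6 were 4 differences of FOXA3 peaks between hPSC, DE and PP, that of the FOXA3 3′UTR peak from PP to hILO and that of the FOXA2 coding peak in the same step. The FOXA3 3′UTR peak was lower in PP than in DE (−0.50, and −0.26 with the count ratio) and higher in hILO than in PP (0.59 and 0.39). The FOXA2 coding peak was lower in hILO than in PP with the count ratio (−0.52). On the authors' scale its interval included 0 (−0.03, −0.17 to 0.11).

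The comparison of A5-KO PP with WT PP asks how peaks differ when the demethylase is missing. In A5-KO PP 5 of 6 member peaks were shared with WT PP, against 46.8% of all A5-KO PP peaks, and 4 of 8 WT PP peaks were shared with A5-KO PP, against 50.0%. Among these 5, the knockout value exceeded the WT PP value by 1 or more for 4 and was lower by that margin for 0, where the shares over all shared peaks were 38.2% for higher and 28.8% for lower. The 4 had under 50 input reads in at least 1 of the lists, and the FOXA3 pairs among them share 1 WT PP peak. The WT PP peaks of the FOXA1 and FOXA3 pairs also had an exomePeak2 p-value above 1e-05, the limit in the study's methods. The same held for the FOXA1 peak in A5-KO PP. For pairs with 50 or more input reads on both sides, the background was 22.9% higher and 21.4% lower, and the 1 member pair left had a difference of −0.18 (−0.23 to −0.13) on the authors' scale and of 0.15 with the count ratio, so that its direction turned with the scaling.

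The FOXA1 stop codon peak had 18 input and 45 IP reads in WT PP (log2 enrichment 1.31) and 4 input and 79 IP reads in A5-KO PP (5.24), a difference of 3.92 (2.35 to 5.50). The FOXA2 stop codon peak had 269 input and 1014 IP reads in WT PP (4.00). In A5-KO PP it had 0 input and 56 IP reads, for which the list gives 9.89. A value fitted on 0 input reads rests on the prior of the fit and is no bound, so the ratio of reads was taken with the 3 input reads that a count of 0 allows. The IP count was then at least 18.7-fold the input count in A5-KO PP, against 3.77-fold in WT PP, without scaling for the libraries. For both genes, then, the difference rests on few input reads, and the FOXA2 peak also had fewer IP reads in the knockout list.

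For FOXA3 the WT PP list has 1 peak over the end of the coding sequence (chr19:45872347-45873146, 34 input and 136 IP reads, log2 enrichment 3.22), which A5-KO PP has in 2 pieces. The upstream piece had 133 input and 863 IP reads (4.31) and the piece over the stop codon 19 input and 200 IP reads (5.20). Their differences from WT PP were 1.09 (0.49 to 1.69) and 1.98 (1.12 to 2.84). FOXA3 was the member with more input in the knockout list, 15.9 against 2.90 reads on the same scale. The FOXA1 peak that holds most reads, chr14:37592627-37593914 in A5-KO PP, is the well covered one, with log2 enrichments of 6.03 (WT PP) and 5.85 (A5-KO PP) on the authors' scale and of 5.49 and 5.63 with the count ratio.

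The other 4 WT PP peaks had no counterpart in A5-KO PP. These were the FOXA2 start codon peak, the FOXA1 peaks at chr14:37594040-37594139 (0 input and 41 IP reads) and chr14:37595252-37596045, and a 50 nt FOXA3 3′UTR peak (13 input reads). A5-KO PP had a FOXA2 peak over the forkhead region (chr20:22582430-22583004, log2 enrichment 3.62, 23568 IP reads) where WT PP had none and DE, PP and hILO each had one.

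DRACH sites were denser inside the member peaks than in the rest of the exons of the same genes in each list. On the longest coding isoforms alone, sites on the transcript strand numbered 66 for FOXA1, 32 for FOXA2 and 26 for FOXA3. Of these, 39, 27 and 18 were in a peak of at least 1 list. Over the exons of all isoforms there were 1.92 to 1.99 sites per 100 nt in peaks and 1.21 to 1.34 outside in the 5 lists from DE onward. The ratio was 1.44 to 1.65. In hPSC, where FOXA3 alone counts, the ratio was 1.59. Over all peaks the median density of each list was 2.00 to 2.18 sites per 100 nt. The pooled density of the member peaks was below the median of its list in every list, and lowest in hPSC with 1.56. The opposite strand of the same bases gave ratios of 0.66 to 0.88 in these 5 lists and 1.14 in hPSC, and GGAC on the transcript strand gave 1.63 to 2.09. DRACH was found in 38 of the 40 peaks, where 89.0% to 92.9% of all peaks in each list held it, and the other 2 were the 50 nt peaks of FOXA1 in PP and FOXA2 in hILO. In GC content 35 of the 40 were above the median of their list.

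Foregut factors that act beside FOXA proteins were counted in the same way, read against the 52.2% to 69.7% of coding genes with a peak given above. Of 12 such genes 3, 9, 8 and 7 carried a peak at the 4 stages in order, and 10 did so for WT PP as for A5-KO PP. GATA4, another pioneer factor of endoderm, had no peak in hPSC and 4 in DE with 7543 input reads. SOX17, an endoderm factor, had 3 peaks with 12130 input reads in DE and none in PP or hILO, but again 3 peaks with 1181 input reads in WT PP and 2 peaks in A5-KO PP. The rise in the count from hPSC to DE did not hold for each gene, as ONECUT1, a liver and pancreas factor, had 5 peaks in hPSC and 0 in DE. ONECUT1 was chosen after its values were seen. MIXL1, a mesendoderm factor, had 20 input reads in 1 hPSC peak and 60 in 1 DE peak.

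Known FOXA target genes of liver, gut and pancreas were counted likewise. Of 12 such genes 1, 1 and 2 carried a peak for hPSC, DE and PP, against 11 for hILO, 9 for WT PP and 10 for A5-KO PP. The batch 2 counts are near the 62.8% and 69.7% of all coding genes in those lists, and the first 3 are below the shares given above for their stages. TTR, which encodes transthyretin, had its first batch 1 peak in hILO with 5868 input reads. APOA1, an apolipoprotein, had 567 input reads in DE peaks and 38393 in hILO, AFP, the fetal serum protein, had 510 in hILO, and NKX2-1, a lung and thyroid factor, had 1 peak, in A5-KO PP. The hepatic targets are also markers of liver cells, whose share in hILO was not tested. LINC00261, the long noncoding RNA beside FOXA2, had 0 peaks in hPSC and 5, 4, 3, 3 and 4 in DE, PP, hILO, WT PP and A5-KO PP, the lists in which FOXA2 had peaks.

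Genes with the input pattern most like that of FOXA2 included GATA4. The measure was Pearson r of log2(1 + input reads in the peaks of the gene per 1000000 in the list) over the 6 lists, among 13761 coding genes, and the points share their batch. For FOXA2 the 5 highest were PLCE1 (r = 0.998), GATA4 (0.996), TSNAX-DISC1 (0.996), TSNAX (0.993) and SPPL2A (0.991), none of which had input reads in hPSC peaks. For FOXA1 they were GKAP1 (0.990), PARVA (0.989), KDM6B (0.989), and GET1 and GET1-SH3BGR (0.988 each). The read-through genes TSNAX-DISC1 and GET1-SH3BGR share peaks with TSNAX and GET1. Between the members r was 0.89 for FOXA1 and FOXA2, −0.59 for FOXA1 and FOXA3 and −0.23 for FOXA2 and FOXA3.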

How the data were processed

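Human MEL1 (INS-GFP/W) cells were profiled by m6A-seq in 6 populations (24 libraries). The authors used fastp for trimming and HISAT2 for alignment to GRCh38, and called peaks with exomePeak2 on the 2 IP and 2 input libraries of each population together. The deposited lists give raw read counts of IP and input per peak, 1 of each over both libraries (whether summed or averaged is not given in the sources used here), the authors' log2 enrichment of IP over input, normalized within each list, and the authors' p-value with its adjusted value. All listed peaks had a log2 enrichment of at least 0.585 and an adjusted p-value of at most 0.05. The study's methods give a p-value below 1e-05 for calling peaks, but the lists also hold peaks above it, and these were kept. The exomePeak2 version is not given in the sources used here. HOMER is also named in the submitters' processing notes.

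Peaks were placed on GENCODE 44 exons, and a peak was shared when over 50% of its exonic length was overlapped on the same strand. Shared peaks were paired with the peak overlapping most bases. A difference of at least 1 in log2 enrichment was the call. Counting intervals (95%) came from the IP and input reads with 0.5 added to each. They and the floor of 3 reads cover counting error only, and PCR copies are not independent molecules. The members, gene lists and tests were chosen with earlier results of these data known. Named genes were the 3 members, LINC00261, for each gene list the 2 genes with most and the 2 with fewest input reads in peaks, and the 5 genes most like FOXA1 and FOXA2; 1 such gene and some of the sequences are not reported here. ALKBH5 was added as the targeted gene, and POU5F1 and ONECUT1 were named outside this rule after their values were seen. Sharing and pairing were tested on simulated peaks. Python 3.11.15, pandas 2.3.3, numpy 2.4.6 and scipy 1.17.1 were used.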

Additional observations from a re-analysis of the deposited data

How the results depend on the processing

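No paired analysis was possible because each population has 1 value per peak, so neither a replicate block nor leaving out a replicate was run. Of 89 results recomputed under an alternative, 56 stayed within the set limits, 32 moved past them and 1, a value past the call, reversed. Medians of the stage differences, all below the call, also turned in sign in both of the first groups. The cause of these moves was not tested where the setting does not itself remove peaks. With the authors' enrichment of IP over input at 3 or more (not the ratio of the raw counts), member peaks fell to 1, 5, 2 and 3 at the 4 stages in order. With the authors' p-value below 1e-05, the limit for calling peaks in the study's methods, 2, 7, 5 and 7 member peaks were left at the 4 stages. WT PP kept 4 and A5-KO PP 5. Below 1e-10 PP kept 4, WT PP 4 and A5-KO PP 3. A minimum of 50 input reads, chosen after seeing the data, left 4 (WT PP) and 3 (A5-KO PP).

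The log2 ratio of counts with 1 offset per list gave median enrichments of 2.24, 2.20, 1.78, 4.03 and 5.77 for DE, PP, hILO, WT PP and A5-KO PP, against 1.79, 1.25, 1.28, 3.56 and 5.22. It gave median differences of 0.097 from hPSC to DE (0.055 with a pseudocount of 10), 0.15 from DE to PP (0.22) and −0.22 from PP to hILO (−0.35). Reciprocal overlap left 1 shared peak in DE and 4 in PP, with a median difference of 0.26 from hPSC to DE, and 2 peaks past the call with a median of 3.92 from WT PP to A5-KO PP. Where both sides of a pair had 50 input reads, the median went from 1.98 to −0.18 and 0 peaks were past the call. This is 1 FOXA1 pair, which had 0.15 with the count ratio. The motif density ratio on the opposite strand was 0.80, 0.66, 0.88, 0.81 and 0.79 for the same 5 lists, and GGAC gave 2.09 in PP. Peaks with 0 input reads, which set no upper limit on enrichment, made up 11.5% of WT PP and 24.6% of A5-KO PP peaks.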
